A study of Mus musculus with 20 samples.

Results

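The 36 genes described here mark macrophages, the resident and recruited phagocytes of a tissue, in RNA of whole mouse plantaris tendons. They were picked by symbol from the 24885 genes of the deposited count table. All 36 were found there, and all 36 were among the 18918 genes abundant enough to test. By role they comprise 3 lineage regulators, 9 pan-macrophage genes, 4 Fc receptor and adaptor genes, 3 C1q genes, 5 genes of pattern recognition and scavenging, Cd86 and Plin2. The set further holds 5 genes of resident macrophages (Lyve1, Folr2, Cd163, Timd4 and Mrc1), 2 of activated macrophages (Trem2 and Gpnmb) and 3 of alternative activation (Arg1, Chil3 and Retnla).

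There were 20 libraries, 4 in each of 5 groups: KO and WT tendons at day 7, KO and WT tendons at day 14, and WT tendons at day 0. KO mice were ScxCreERT2+/+ IGF1Rflox/flox, and WT mice ScxCreERT2-/- IGF1Rflox/flox, so that every mouse in the study carried the flox alleles of the IGF1 receptor gene. The recombinase CreERT2 sits at Scx, a gene of tenocytes, the fibroblasts of tendon, and is active only with tamoxifen. The KO and WT mice of day 7 and day 14 had tamoxifen and a growth stimulus of the tendon, whereas WT day 0 mice had neither. A change from WT day 0 therefore cannot be assigned to the stimulus or to tamoxifen, which cannot be told apart here, and no KO day 0 group was analysed. The labels give neither ages nor the animal behind each replicate, so a p-value here reflects how far libraries of a group scatter, and that scatter could be technical.

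Tissue macrophages depend on the growth factor receptor encoded by Csf1r and on the transcription factor PU.1, encoded by Spi1. Loaded or injured tissue recruits monocytes from blood, which turn into macrophages beside those already resident. Resident cells of connective tissue are known for scavenger and lipid receptors such as Lyve1, Timd4 and Cd163. Macrophages that take up debris and lipid switch on Trem2 and Gpnmb, and interleukins of type 2 immunity induce Arg1, Chil3 and Retnla. In whole tissue, fewer cells of a type and less RNA per cell cannot be told apart.

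Library depth ranged from 32.3 to 63.5 M counts. Levels are given as counts per M counts (CPM) after scaling for library composition. Changes are log2 fold changes ± SE from edgeR's quasi-likelihood test, and a gene was called where its p, adjusted by the Benjamini-Hochberg method over all tested genes, was below 0.05. The defining macrophage markers Cd68, Csf1r, Adgre1, Spi1 and Lyz2 all lay above 31.5 CPM in every library. Igf1r itself was not lower in KO than in WT tendon, with 51.3 ± 2.81 CPM in KO and 49.2 ± 2.17 CPM in WT at day 7 (SD, n = 4 each). A count over the whole gene cannot check the loss of the floxed part. Scx, which carries the recombinase, had 736 ± 281 CPM in KO and 50.5 ± 5.52 CPM in WT at day 7. The library WT day 7 replicate 1 stood apart from its group, as it held the lowest of the 4 values for 27 of the 36 genes, and calls that change without it are named with their values or counted.

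Promoter sequences are shown for 6 genes that the results turn on, from 5 of the roles. They end at the start of transcription and come from RefSeq on GRCm38.p6, read 5′ to 3′ on the strand of the gene. For Mrc1 and Retnla, the window ends where the annotated GENCODE gene begins. Capitals mark GAGGAA, the core of PU.1 sites, TGANTCA, the site of AP-1 factors, and the STAT6-type motif, which is TTC and GAA with any 4 bases between them, on either strand, so that TTCCTC is GAGGAA read from the other strand.
Cd68, pan-macrophage, chr11:69666171-69666420, minus strand: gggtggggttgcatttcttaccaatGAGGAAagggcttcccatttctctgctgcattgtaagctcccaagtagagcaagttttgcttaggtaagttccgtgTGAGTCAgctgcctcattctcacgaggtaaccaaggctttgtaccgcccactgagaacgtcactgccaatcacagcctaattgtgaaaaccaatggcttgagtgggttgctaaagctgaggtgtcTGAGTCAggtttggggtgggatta
Trem2, activated, chr17:48346151-48346400, plus strand: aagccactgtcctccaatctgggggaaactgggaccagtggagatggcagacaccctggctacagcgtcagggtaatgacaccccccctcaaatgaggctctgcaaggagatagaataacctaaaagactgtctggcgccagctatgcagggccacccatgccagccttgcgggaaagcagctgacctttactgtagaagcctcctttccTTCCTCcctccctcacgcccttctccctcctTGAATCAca
Clec7a, pattern recognition, chr6:129472780-129473029, minus strand: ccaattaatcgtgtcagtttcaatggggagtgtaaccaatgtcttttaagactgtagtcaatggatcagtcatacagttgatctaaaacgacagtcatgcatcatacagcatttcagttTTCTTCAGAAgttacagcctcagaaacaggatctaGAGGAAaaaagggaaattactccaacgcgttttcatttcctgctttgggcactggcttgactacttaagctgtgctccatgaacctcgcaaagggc
Mrc1, resident, chr2:14229164-14229391, plus strand: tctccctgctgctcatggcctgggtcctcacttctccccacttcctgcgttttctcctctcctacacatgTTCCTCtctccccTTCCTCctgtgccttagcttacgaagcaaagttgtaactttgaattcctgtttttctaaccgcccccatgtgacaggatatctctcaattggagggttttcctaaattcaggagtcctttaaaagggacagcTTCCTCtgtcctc
Retnla, alternative, chr16:48842359-48842550, plus strand: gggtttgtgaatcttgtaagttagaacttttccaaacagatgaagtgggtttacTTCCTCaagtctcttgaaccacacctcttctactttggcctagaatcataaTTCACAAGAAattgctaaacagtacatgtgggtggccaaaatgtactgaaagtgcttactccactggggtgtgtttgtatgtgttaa
Chil3, alternative, chr3:106167565-106167814, minus strand: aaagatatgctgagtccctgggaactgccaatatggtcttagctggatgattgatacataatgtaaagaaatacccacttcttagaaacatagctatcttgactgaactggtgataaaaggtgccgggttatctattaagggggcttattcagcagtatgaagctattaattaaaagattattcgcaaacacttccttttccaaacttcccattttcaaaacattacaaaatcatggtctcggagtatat
The Cd68 window held 1 GAGGAA and 2 TGANTCA, that of Trem2 1 of each, and that of Mrc1 3 GAGGAA. The windows of Retnla and Clec7a each held 1 GAGGAA and 1 STAT6-type motif, and none of these motifs was found in that of Chil3.

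RefSeq promoters of 250 bases were matched for 26 of the 36 genes, 31 promoters in all. GAGGAA was found in 15 of the 31 (48.4%), beside 23.3% of 32851 promoters of the same length. The STAT6-type motif was found in 5 (16.1%, beside 5.85%), TGANTCA in 4 (12.9%, beside 6.75%), and the E-box CACGTG in 0, beside 6.02% of all. Matches that overlap one another were each counted. The windows of Clec7a overlap almost fully, as do those of Fcgr3, so their sites were counted in each window. By gene, GAGGAA was found for 13 of the 26, the STAT6-type motif for 4 and TGANTCA for 4. These matches describe letters in the windows and were not tested for binding.

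At day 7 of the stimulus, most macrophage genes were far higher in WT tendon than in WT tendon at day 0. Of the 36 genes, 28 rose and 3 fell, beside 32.3% and 31.8% of all tested genes, or 64.1% in either direction. The median log2 change of the 36 was 1.51, beside 0.02 over all genes. For 28 genes all 4 WT day 7 libraries lay above all 4 of WT day 0, and for 3 genes all lay below, beside 30.4% and 30.2% of all genes. Cd86, a costimulatory ligand of T cells, Mertk, a receptor for the uptake of dying cells, the chemokine gene Pf4, Folr2 and Cd163 did not pass the test.

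All 3 lineage regulators rose. Spi1 had 52.4, 88.1, 105 and 101 CPM in WT day 7 libraries, against 32.6, 39.0, 33.0 and 34.8 CPM in WT day 0 libraries. Every day 7 value lay above every day 0 value, with a log2 change of 1.31 ± 0.18 (adjusted p = 2.78e-06). Irf8, which directs monocyte development, rose by 1.41 ± 0.16 and Csf1r by 0.99 ± 0.17 on the log2 scale. The counts of Csf1r are uncertain, since its exons share 873 bases with Hmgxb3 on the opposite strand and the strand setting is not given in the sources used here.

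Of the 9 pan-macrophage genes, 8 rose. Pf4 missed the threshold with a log2 change of 0.39 ± 0.20 (adjusted p = 0.104), and passed it without WT day 7 replicate 1, at 0.52 (adjusted p = 0.0343). Mpeg1, which encodes the pore-forming perforin-2, had 425, 355, 372 and 444 CPM in WT day 7 libraries, against 51.0, 57.8, 38.6 and 45.4 CPM in WT day 0 libraries. Cd68, a glycoprotein of lysosomes, had 231, 291, 309 and 325 CPM in WT day 7 libraries, against 57.7, 58.7, 54.9 and 57.0 CPM in WT day 0 libraries. Neither gene had overlapping groups, and their folds were 8.27 and 5.06 (adjusted p = 3.09e-11 and 2.35e-11). Ms4a7 rose 8.04-fold, Aif1, an actin-binding protein, 4.34-fold, Adgre1, the F4/80 antigen, 3.49-fold and the lysozyme gene Lyz2 3.17-fold. Itgam and Laptm5 rose 2.36-fold and 1.96-fold. Itgam shares 3450 exon bases with the annotated gene Gm49368 on the same strand, and Lyz2 has the close copy Lyz1, so both counts are uncertain.

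All 4 Fc receptor and adaptor genes rose, beside 32.3% of all tested genes. Fcgr1, the high-affinity receptor for IgG, had 44.0, 73.6, 73.4 and 96.9 CPM in WT day 7 libraries, against 8.90, 8.78, 7.46 and 7.49 CPM in WT day 0 libraries. The lowest day 7 library was still well above all of day 0, and the fold was 8.82 (adjusted p = 3.54e-08). Tyrobp, the adaptor of TREM2, rose 4.07-fold, Fcer1g, the shared signalling chain of Fc receptors, 3.51-fold, and Fcgr3 3.19-fold. Fcgr3 is uncertain because Fcgr4 and Fcgr2b have similar sequence.

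C1qa, C1qb and C1qc encode the 3 chains of C1q, the starter of the classical complement pathway, and rose to similar extents, by 2.37-fold, 3.03-fold and 2.25-fold. Per kilobase of exon, C1qb at 545 CPM per kb and C1qa at 464 came next after Lyz2 at 1921 in WT day 7, while C1qc at 254 lay just below Tyrobp at 265. Among the 5 genes of pattern recognition and scavenging, the scavenger receptor gene Msr1 rose 4.54-fold and Clec7a, the receptor dectin-1 for fungal glucans, 4.29-fold. Ly86 rose 3.26-fold and the endotoxin receptor Cd14 2.11-fold. Plin2, which coats lipid droplets in many cell types, rose 3.84-fold. Its highest day 7 value, 257 CPM, was in WT day 7 replicate 1, the library lowest for most other genes. Its fall in WT day 14 against WT day 7 was -0.93 ± 0.26 on the log2 scale (adjusted p = 0.0124), and without that library -0.67, which missed the threshold (adjusted p = 0.0508).

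**Figure D1:**
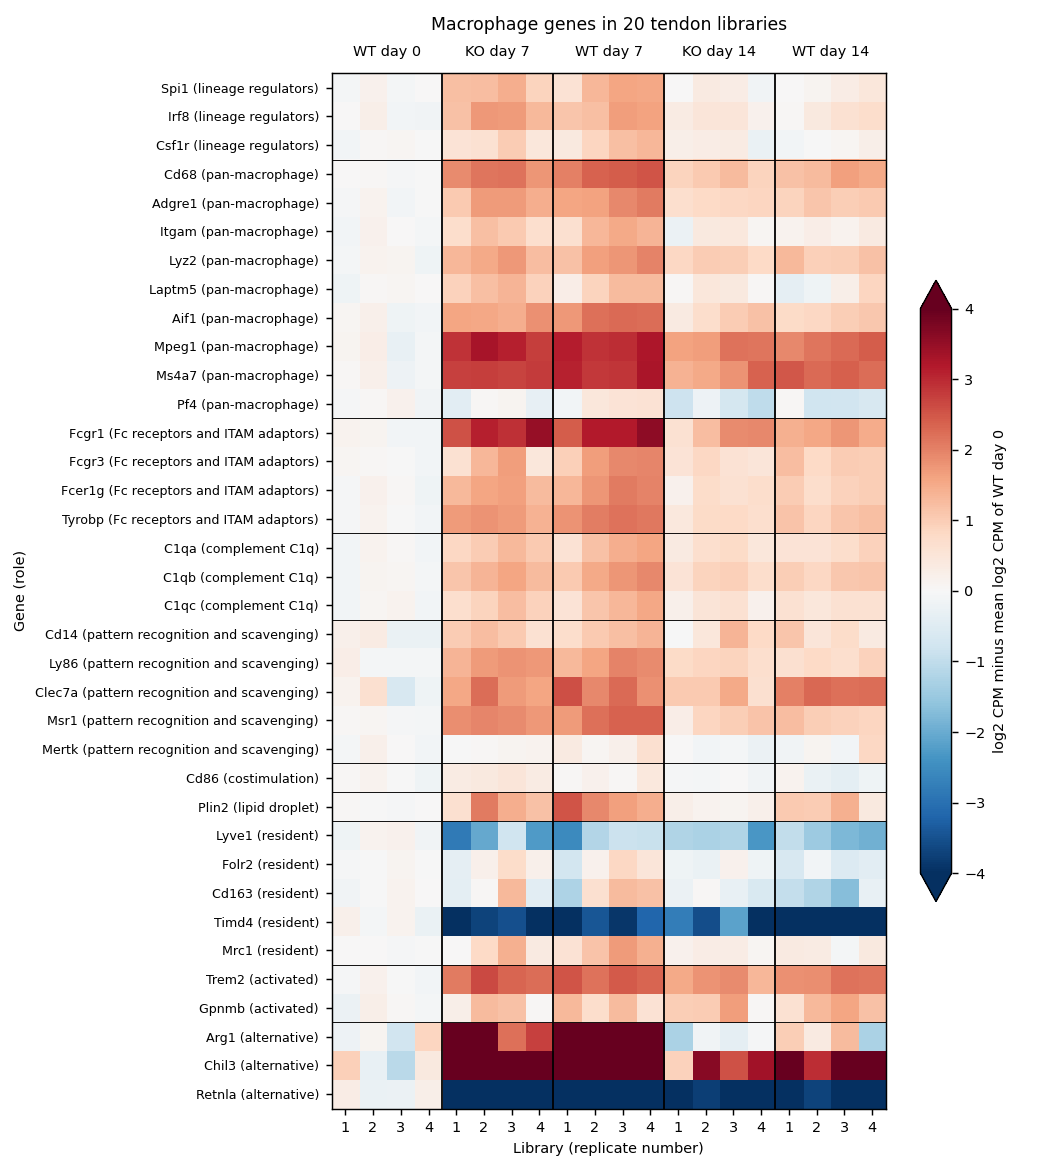
Rows are the 36 macrophage genes with their roles, and columns the 20 libraries by group and replicate number. The colour is log2 CPM minus the mean log2 CPM of WT day 0, cut at 4 in either direction. Most genes are red at day 7 and paler at day 14 in KO and WT alike, whereas Lyve1, Timd4 and Retnla are blue at both days.

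The resident genes were divided. Of the 5, 1 rose, 2 fell and 2 did not pass the test in WT day 7 against WT day 0, beside 32.3% and 31.8% of all tested genes. With 5 genes, these counts do not set the resident genes apart from all genes. The summed level of the 5 averaged 1015 ± 386 CPM in WT day 7 and 628 ± 29.8 CPM in WT day 0 (SD, n = 4 each), most of it Mrc1 and Cd163 at day 7. Lyve1, the hyaluronan receptor (chromosome 7, 110850607 to 110863239, minus strand, GRCm38), had 28.5, 74.3, 91.1 and 89.9 CPM in WT day 7 libraries, against 147, 184, 189 and 151 CPM in WT day 0 libraries. All day 7 libraries lay below all of day 0, and the log2 change was -1.24 ± 0.42 (adjusted p = 0.0157). Lyve1 also marks lymphatic vessels, whose genes Prox1 and Flt4 changed by -0.81 ± 0.19 and -1.05 ± 0.23 in the same comparison. Of the whole list of 8 endothelial and lymphatic markers, 1, Pdpn, was higher, at 1.36 ± 0.12, and 4 were lower, beside 32.3% and 31.8% of all tested genes, with a summed level of 464 ± 40.8 CPM in WT day 7 and 495 ± 37.1 CPM in WT day 0 (SD, n = 4 each). Prox1 averaged 8.23 ± 0.473 CPM in WT day 7 and 14.5 ± 1.49 CPM in WT day 0 (SD, n = 4 each), and its part in the fall of Lyve1 was not tested.

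Timd4, the phosphatidylserine receptor TIM-4 (chromosome 11, 46810800 to 46844332, plus strand), fell furthest of the 5. It had 0.130, 0.508, 0.371 and 0.608 CPM in WT day 7 libraries, against 6.30, 5.25, 6.04 and 4.55 CPM in WT day 0 libraries. The groups were far apart, with a 13.8-fold lower level at day 7 (adjusted p = 4.69e-07), where each library held 9 to 32 counts.

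Mrc1, the mannose receptor CD206, went the other way. It had 394, 575, 848 and 698 CPM in WT day 7 libraries, against 268, 267, 254 and 260 CPM in WT day 0 libraries, a rise of 2.40-fold (adjusted p = 0.000151). Cd163, the haemoglobin scavenger receptor, had 77.5, 284, 433 and 414 CPM in WT day 7 libraries, against 166, 180, 200 and 183 CPM in WT day 0 libraries. Its groups overlapped, because WT day 7 replicate 1 lay below every day 0 library while the other 3 lay above. Without that library the log2 change of Cd163 was 1.05 (adjusted p = 0.0228) and that of the folate receptor gene Folr2 0.52 (adjusted p = 0.0302), so Cd163 and Folr2 then passed the test. Folr2 shares 975 exon bases with an antisense gene.

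The 3 alternative genes split in opposite directions. Chil3, which encodes the chitinase-like protein Ym1 (chromosome 3, 106147554 to 106167564, minus strand), had 6.93, 45.8, 49.5 and 39.0 CPM in WT day 7 libraries, against 0.428, 0.179, 0.104 and 0.289 CPM in WT day 0 libraries. Arg1, the arginase that breaks down arginine, had 8.20, 21.6, 8.20 and 18.1 CPM in WT day 7 libraries, against 0.367, 0.456, 0.25 and 0.770 CPM in WT day 0 libraries. Neither gene had overlapping groups, with log2 changes of 7.22 ± 0.81 for Chil3 and 4.92 ± 0.76 for Arg1 (adjusted p = 8.69e-07 and 2.36e-05). Neutrophils also express Chil3, and their 11 markers summed to 118 ± 31.2 CPM in WT day 7 and 7.14 ± 1.04 CPM in WT day 0 (SD, n = 4 each). Their part in the rise of Chil3 was not tested.

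Retnla, the secreted protein RELM-alpha (chromosome 16, 48842551 to 48844461, plus strand), fell by the widest margin of the 36. It had 0.361, 0.288, 0.283 and 0.285 CPM in WT day 7 libraries, against 126, 84.9, 87.1 and 121 CPM in WT day 0 libraries. The 4 day 7 libraries were nearly equal and held 15.0 to 25.0 counts each, and the level was 339-fold lower (log2 change -8.40 ± 0.97, adjusted p = 1.26e-06). Per kilobase of exon, Retnla had rank 4 among the 36 genes at WT day 0, with 175 CPM per kb. Fat tissue also makes Retnla, and the 7 adipocyte markers summed to 421 ± 151 CPM in WT day 7 and 1777 ± 392 CPM in WT day 0 (SD, n = 4 each). All 7 were lower, beside 31.8% of all tested genes. Adipoq, their defining gene, averaged 28.0 ± 14.2 CPM in WT day 7 and 144 ± 36.1 CPM in WT day 0. The part of fat in the fall of Retnla was not tested.

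Both genes of activated macrophages rose. Trem2, the lipid-sensing receptor (chromosome 17, 48346401 to 48354147, plus strand), had 120, 94.8, 113 and 105 CPM in WT day 7 libraries, against 20.4, 23.5, 20.5 and 19.2 CPM in WT day 0 libraries. The 4 libraries of each group were tight and far apart, with a fold of 5.18 (adjusted p = 5.50e-11). Gpnmb, a glycoprotein of lysosome-rich cells, had 392, 262, 385 and 240 CPM in WT day 7 libraries, against 137, 187, 166 and 153 CPM in WT day 0 libraries, and rose 1.98-fold (adjusted p = 0.0123). Osteoclasts also express Gpnmb, and all 6 tested osteoclast markers were higher in WT day 7, beside 32.3% of all tested genes. Ctsk, the most abundant of them, averaged 543 ± 77.3 CPM in WT day 7 and 162 ± 12.8 CPM in WT day 0 (SD, n = 4 each). In WT day 14 against WT day 7, Ctsk changed by 0.85 ± 0.18 on the log2 scale (adjusted p = 0.00168). Of the 6 markers, 4 were lower in that comparison, beside 14.3% of all tested genes. The part of such cells was not tested.

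**Figure D2:**
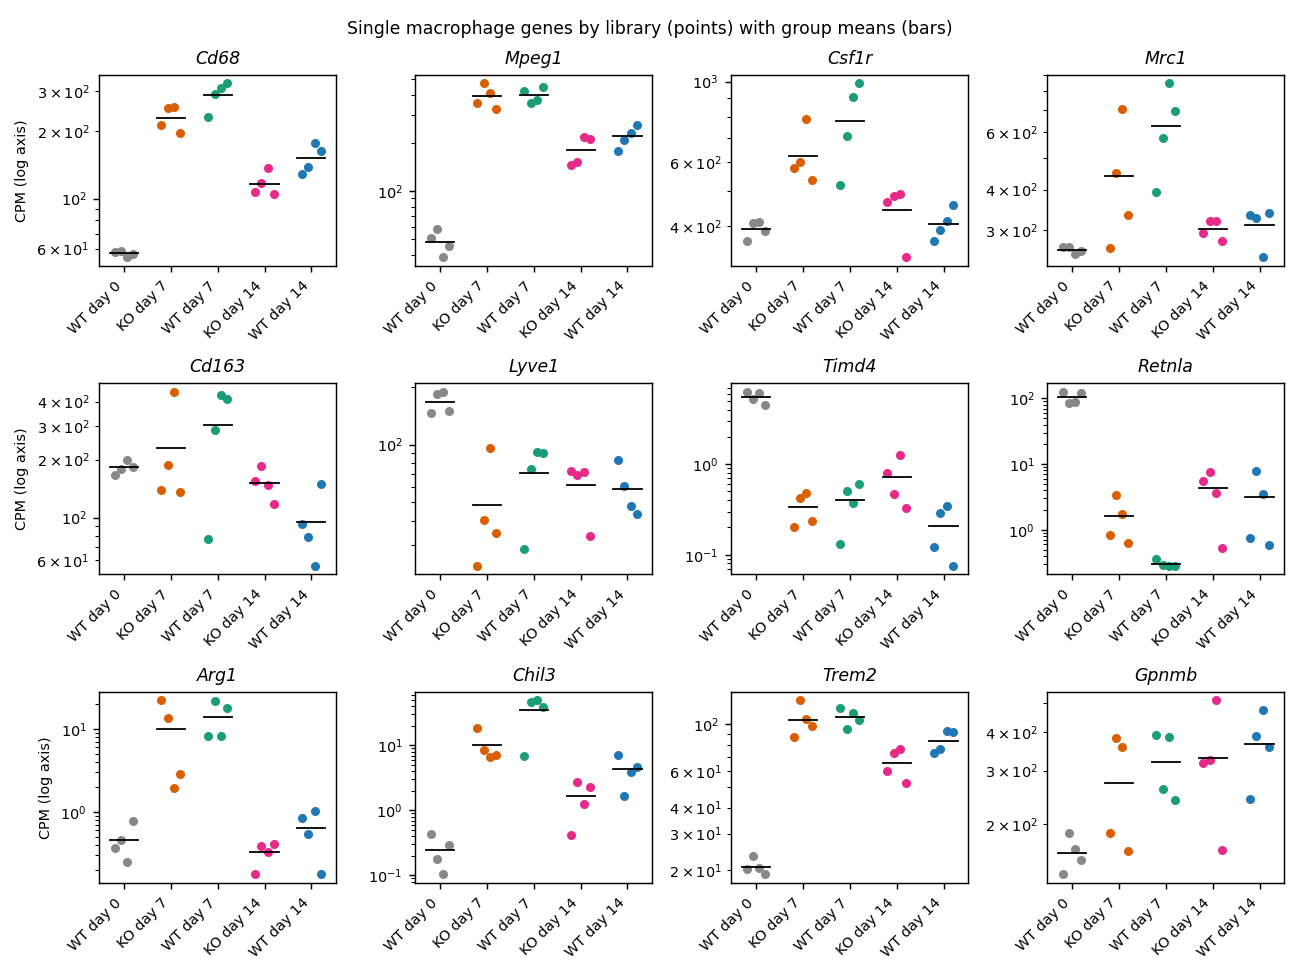
Each panel shows CPM on a log axis for 1 gene, with 1 point a library and a bar at the mean of each group of 4. Cd68, Mpeg1, Trem2 and Chil3 are lowest in WT day 0, whereas Lyve1, Timd4 and Retnla are highest there.

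At day 14 the macrophage genes in WT tendon had come part of the way back. Against WT day 7, 29 of the 36 fell and 1, Retnla, rose, beside 14.3% and 16.0% of all tested genes, or 30.4% in either direction. All WT day 14 libraries lay below all of WT day 7 for 18 genes and above them for 1, beside 12.7% and 12.9% of all genes. Against WT day 0, which shares the WT day 14 libraries with that comparison, 22 of the 36 were still higher and 4 lower, beside 28.0% and 26.2% of all tested genes, or 54.3% in either direction. All WT day 14 libraries lay above all of WT day 0 for 21 genes and below them for 5, beside 23.2% and 23.0% of all genes. The other gene that fell, besides Lyve1, Timd4 and Retnla, was Pf4, at -0.50 ± 0.20 (adjusted p = 0.0471), and 10 of 17 other settings lost that call.

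How much of the day 7 rise remained at day 14 differed widely among the 28 genes that rose. The excess of the mean CPM over WT day 0 at day 14, as a share of the excess at day 7, had a median of 36% and ranged from 1.35% for Arg1 to 129.5% for Gpnmb. The lineage regulators retained little, with 3.53% for Csf1r, 11.6% for Spi1 and 22.0% for Irf8. C1q genes retained 38.6% to 50.04%, the Fc receptor and adaptor genes 24.6% to 46.7%, and Ms4a7 57.7%. Trem2 retained 71.9%, Clec7a 101% and Gpnmb 129.5%. These shares are descriptions of group means and carry no test.

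Clec7a had 24.1, 29.2, 27.6 and 27.9 CPM in WT day 14 libraries, against 35.2, 22.4, 28.9 and 21.3 CPM in WT day 7 libraries. The ranges overlapped and the log2 change was 0.01 ± 0.23 (adjusted p = 0.975). Gpnmb had 243, 390, 474 and 358 CPM in WT day 14 libraries, with a log2 change of 0.20 ± 0.32 against WT day 7 (adjusted p = 0.689). Csf1r had 365, 391, 413 and 459 CPM in WT day 14 libraries, which overlapped the WT day 0 libraries at 364, 409, 412 and 387 CPM, with a log2 change of 0.05 ± 0.17 (adjusted p = 0.821). Cd68, in contrast, had 128, 138, 176 and 163 CPM in WT day 14 libraries, all above day 0, and was still 2.65-fold higher than in WT day 0 (adjusted p = 2.33e-08). Trem2 remained 4.003-fold above WT day 0 and fell by 0.37 ± 0.13 on the log2 scale against WT day 7 (adjusted p = 0.0367). That last call was lost without any of WT day 7 replicates 1, 3 and 4 or WT day 14 replicates 1 and 2, with adjusted p of 0.0598 to 0.111.

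Arg1 and Chil3 receded by wide margins, and Retnla came back a little. Arg1 had 0.845, 0.539, 1.01 and 0.176 CPM in WT day 14 libraries, 21.8-fold lower than in WT day 7 (adjusted p = 0.000288) and overlapping WT day 0. Chil3 had 7.05, 1.69, 3.96 and 4.61 CPM in WT day 14 libraries, 8.20-fold lower than in WT day 7 (adjusted p = 0.0015). Retnla had 0.748, 7.92, 3.54 and 0.579 CPM in WT day 14 libraries, a 10.6-fold rise over WT day 7 (adjusted p = 0.00917) that left it 32.03-fold below WT day 0. Leaving out WT day 14 replicate 2, the highest of these, ended that call, with adjusted p = 0.0526.

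Lyve1 and Timd4 stayed low at day 14. Lyve1 had 83.4, 60.7, 47.6 and 43.5 CPM in WT day 14 libraries, 2.85-fold lower than in WT day 0 (adjusted p = 0.00622). Timd4 had 0.121, 0.287, 0.346 and 0.0755 CPM there, 25.9-fold lower than in WT day 0 (adjusted p = 1.73e-07). Both groups lay wholly below WT day 0, and the same was true of Cd163 and Folr2, whose changes of -0.95 ± 0.46 and -0.42 ± 0.25 did not pass the test (adjusted p = 0.0913 and 0.165). Mrc1 fell by 1.01 ± 0.24 against WT day 7 and did not pass the test against WT day 0 (log2 change 0.25 ± 0.24, adjusted p = 0.382).

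**Figure D3:**
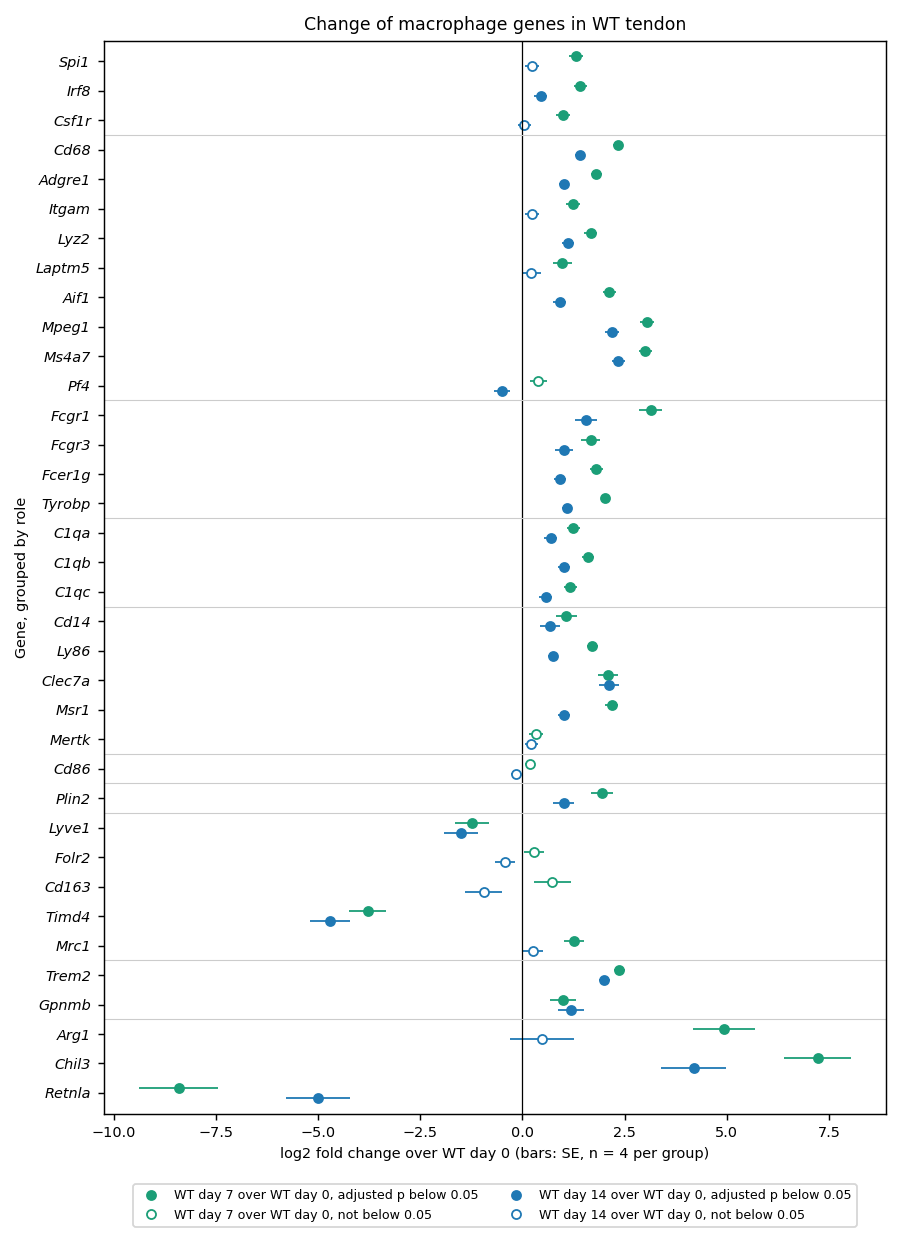
Points are log2 fold changes over WT day 0 of WT day 7 (green) and WT day 14 (blue) for each of the 36 genes, with bars for the SE (n = 4 per group), and filled points pass the test. Green points lie right of blue ones for most genes, and the 3 genes far left of 0 at both days are Lyve1, Timd4 and Retnla.

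In KO tendon the same fall with time was tested within the genotype. Between KO day 14 and KO day 7, 23 of the 36 genes fell and 0 rose, beside 8.57% and 7.09% of all tested genes, or 15.7% in either direction. All KO day 14 libraries lay below all of KO day 7 for 25 genes and above them for 0, beside 11.3% and 9.39%. Cd68 had 107, 117, 137 and 105 CPM in KO day 14 libraries, against 212, 252, 256 and 196 CPM in KO day 7 libraries. Arg1 had 0.178, 0.385, 0.327 and 0.408 CPM in KO day 14 libraries, against 22.2, 13.5, 1.93 and 2.84 CPM in KO day 7 libraries. Neither gene had overlapping groups, with log2 changes of -0.97 ± 0.12 and -4.94 ± 0.79 (adjusted p = 8.21e-05 and 0.000798). All 5 resident genes missed the threshold, and Timd4 had a log2 change of 1.10 ± 0.47 (adjusted p = 0.116).

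Set against the 9 pan-macrophage genes, the resident genes had their highest share in WT day 0. The 9 genes summed to 3552 ± 500 CPM in KO day 7 and 2220 ± 178 in KO day 14, and to 1244 ± 101 CPM in WT day 0, 4043 ± 783 in WT day 7 and 2562 ± 226 in WT day 14 (SD, n = 4 each), of which Lyz2 made up 61.9% to 67.4%. The log2 ratio of the resident sum to that sum averaged -2.40 ± 0.50 in KO day 7 and -2.08 ± 0.15 in KO day 14. It was -0.98 ± 0.07 in WT day 0, -2.07 ± 0.40 in WT day 7 and -2.45 ± 0.21 in WT day 14. Every WT day 0 library had a higher ratio than each of the 16 others. Without Lyz2 in the sum this separation held, with a range of 0.43 to 0.57 in WT day 0 libraries and a highest value of -0.21 elsewhere. At day 14 every KO library lay above every WT library in the ratio, by a small margin, and with Lyz2 left out the 2 groups overlapped.

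The activated ratio overlapped between all groups, with -3.28 ± 0.33 in KO day 7 and -2.58 ± 0.52 in KO day 14. It was -2.78 ± 0.10 in WT day 0, -3.24 ± 0.53 in WT day 7 and -2.54 ± 0.44 in WT day 14. Without Lyz2 in the sum, every KO day 7 library lay below every library of WT day 0 and WT day 14. The highest KO day 7 value was then -1.57, and the lowest values were -1.45 in WT day 0 and -1.25 in WT day 14. The members of the activated ratio parted company. With Lyz2 in the sum, the ratio of Trem2 alone averaged -5.90 ± 0.06 in WT day 0, -5.21 ± 0.38 in WT day 7 and -4.94 ± 0.21 in WT day 14. The C1q ratio was also highest in WT day 0, where every library lay above each of the 16 others, with -1.41 ± 0.13 in KO day 7, -1.39 ± 0.13 in WT day 7 and -1.01 ± 0.04 in WT day 0. Without Lyz2 in the sum, this separation of the C1q ratio was lost. WT day 14 replicate 1 then had 0.435 and KO day 14 replicate 2 had 0.430. WT day 0 replicates 1 and 4 lay below both, at 0.417 and 0.408. The ratio of Csf1r alone averaged -1.66 ± 0.08 in WT day 0, -2.39 ± 0.14 in WT day 7 and -2.66 ± 0.16 in WT day 14, below day 0 in each later library. These ratios were described with no test.

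**Figure D4:**
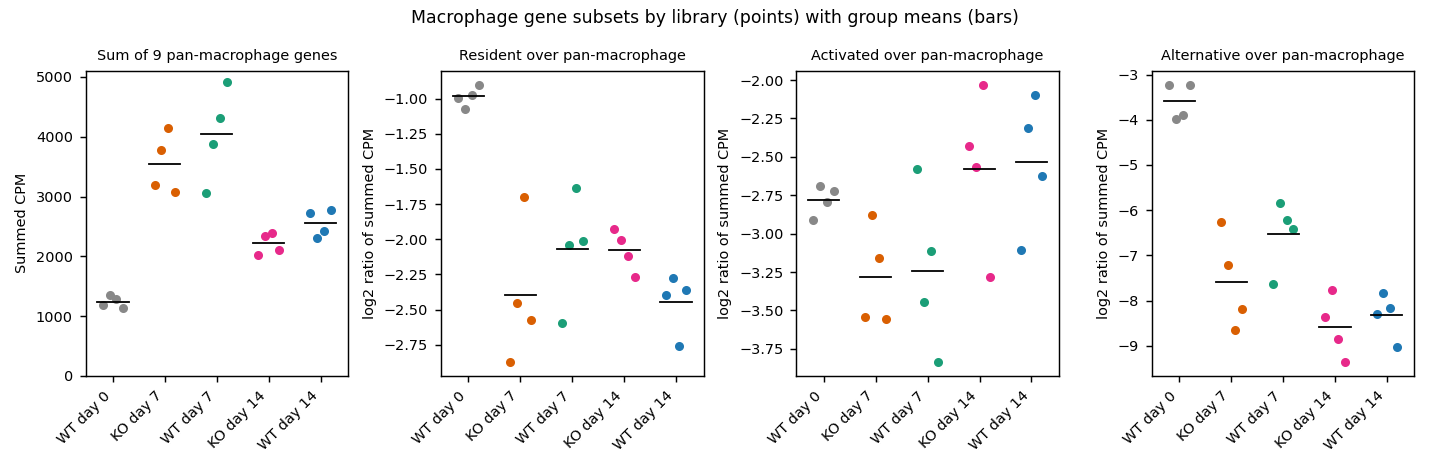
The left panel shows the summed CPM of 9 pan-macrophage genes, and the other panels the log2 ratio of the summed CPM of the resident, activated and alternative genes to that sum, with 1 point a library and bars at group means (n = 4). The resident ratio of the 4 WT day 0 libraries, near -0.98, stands above every other library, and KO and WT libraries of a day overlap in all panels except that KO day 14 lies above WT day 14 in the resident ratio.

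The comparison of KO with WT is meant to address the IGF1 receptor in tenocytes. KO mice differ from WT mice in the recombinase alleles as well as in the intended deletion, and the effects of these cannot be told apart here. Igf1r was not lower in KO at day 14 either, with means of 53.1 CPM in KO and 45.3 CPM in WT (n = 4 each) and a log2 change of 0.23 ± 0.08 (adjusted p = 0.162). At day 7, 3 of the 36 genes were lower in KO and 0 higher, beside 5.42% and 9.39% of all tested genes, or 14.8% in either direction. The estimates were negative for 32 of the 36, with a median log2 change of -0.27, beside -0.01 over all genes. The groups failed to overlap for 2 genes, Ms4a7 with all KO libraries lower and Retnla with all KO libraries higher, beside 10.3% and 14.0% of all genes.

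Aif1 had 21.8, 21.4, 20.1 and 26.0 CPM in KO day 7 libraries, against 24.03, 33.7, 35.2 and 34.3 CPM in WT day 7 libraries. Tyrobp had 140, 152, 141 and 113 CPM in KO day 7 libraries, against 149, 178, 195 and 185 CPM in WT day 7 libraries. Chil3 had 18.5, 8.65, 6.72 and 7.05 CPM in KO day 7 libraries, against 6.93, 45.8, 49.5 and 39.0 CPM in WT day 7 libraries. In all 3 genes the groups overlapped only through WT day 7 replicate 1 and the highest KO libraries.

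The log2 changes were -0.51 ± 0.15 for Aif1 (adjusted p = 0.0305), -0.37 ± 0.11 for Tyrobp (adjusted p = 0.0253) and -1.78 ± 0.58 for Chil3 (adjusted p = 0.0481). Exact permutation tests gave p = 0.0571 for Aif1 and for Tyrobp and p = 0.114 for Chil3, where 0.0286 is the smallest p that 4 against 4 libraries allow. Each of the 3 calls was lost without WT day 7 replicate 2, 3 or 4. That of Aif1 was also lost without KO day 7 replicate 1, 2 or 3, that of Tyrobp without KO day 7 replicate 4, and that of Chil3 without KO day 7 replicate 2, 3 or 4. The adjusted p then ranged from 0.0627 to 0.131. Without WT day 7 replicate 1, in contrast, 11 of the 36 genes were lower in KO. The share of all genes lower in that setting is not given here, so the 11 cannot be set beside it. Over all genes, 1440 to 2659 were called in either direction with 1 library left out, beside 2802 with every library kept.

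Other leukocyte genes moved beside these. Ptprc, the pan-leukocyte gene CD45, averaged 123 CPM in KO day 7 and 177 CPM in WT day 7, a log2 change of -0.52 ± 0.12 (adjusted p = 0.0102), and 2 of the 4 leukocyte markers were lower in KO, beside 5.42% of all genes. The 18 muscle fibre markers summed to 9211 ± 3650 CPM in KO day 7 and 1384 ± 815 CPM in WT day 7 (SD, n = 4 each), with 14 of them higher in KO, beside 9.39% of all genes. The part of either in the macrophage values was not tested. Retnla had 0.837, 3.33, 1.71 and 0.622 CPM in KO day 7 libraries, against 0.361, 0.288, 0.283 and 0.285 CPM in WT day 7 libraries. All KO libraries were higher, but the log2 change of 2.35 ± 0.93 did not pass the test (adjusted p = 0.0993).

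At day 14, 1 of the 36 genes was lower in KO than in WT and 0 were higher, beside 0.719% and 1.06% of all tested genes, or 1.78% in either direction. The gene was Clec7a (chromosome 6, 129461591 to 129472779, minus strand), with 12.4, 12.4, 17.1 and 9.21 CPM in KO day 14 libraries, against 24.1, 29.2, 27.6 and 27.9 CPM in WT day 14 libraries. The groups were well apart, with a log2 change of -1.09 ± 0.24 (adjusted p = 0.0237) and an exact permutation p of 0.0286. The call was lost without WT day 14 replicate 2 or 3 or KO day 14 replicate 1, 2 or 4, with adjusted p of 0.0543 to 0.0739 and log2 changes of -0.96 to -1.09. Dendritic cells also express Clec7a, and their 8 markers summed to 55.4 ± 13.1 CPM in KO day 14 and 69.6 ± 13.3 CPM in WT day 14 (SD, n = 4 each), with 1 of 8 lower in KO. Their part was not tested.

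Groups failed to overlap for 3 further genes at day 14, all lower in KO, so 4 of the 36 were wholly lower and 0 wholly higher, beside 3.14% and 2.99% of all tested genes. Plin2 had 52.7, 49.4, 48.1 and 51.1 CPM in KO day 14 libraries, against 93.4, 90.0, 119 and 58.6 CPM in WT day 14 libraries. The KO values were tight and near those of WT day 0, at 43.0 to 46.7 CPM, and the log2 change was -0.84 ± 0.26 (adjusted p = 0.116). Tyrobp and Adgre1 had log2 changes of -0.41 ± 0.11 and -0.22 ± 0.13 (adjusted p = 0.0515 and 0.398).

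The resident genes had their largest genotype estimate in Timd4. It had 0.8, 0.474, 1.25 and 0.332 CPM in KO day 14 libraries, against 0.121, 0.287, 0.346 and 0.0755 CPM in WT day 14 libraries, a log2 change of 1.74 ± 0.50 (adjusted p = 0.0825). That estimate rests on few counts of Timd4, 13 to 42 in each KO day 14 library and 3 to 16 in each WT day 14 library. Cd163 had 154, 186, 147 and 118 CPM in KO day 14 libraries, against 93.2, 79.1, 56.2 and 149 CPM in WT day 14 libraries, a log2 change of 0.68 ± 0.46 (adjusted p = 0.487). The ranges overlapped in both genes. Trem2 and Gpnmb had log2 changes of -0.36 ± 0.13 and -0.16 ± 0.32 (adjusted p = 0.17 and 0.858). A change that misses the threshold does not show that KO and WT are alike.

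Whether the genotype difference itself differed between the days was tested as an interaction, in which 0 of 18918 genes and 0 of the 36 passed (0.0% of all). At an unadjusted p below 0.05, 2039 genes and 2 of the 36 stood out. DESeq2 called 190 genes and limma-voom 0, with 0 of the 36 among either.

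**Figure D5:**
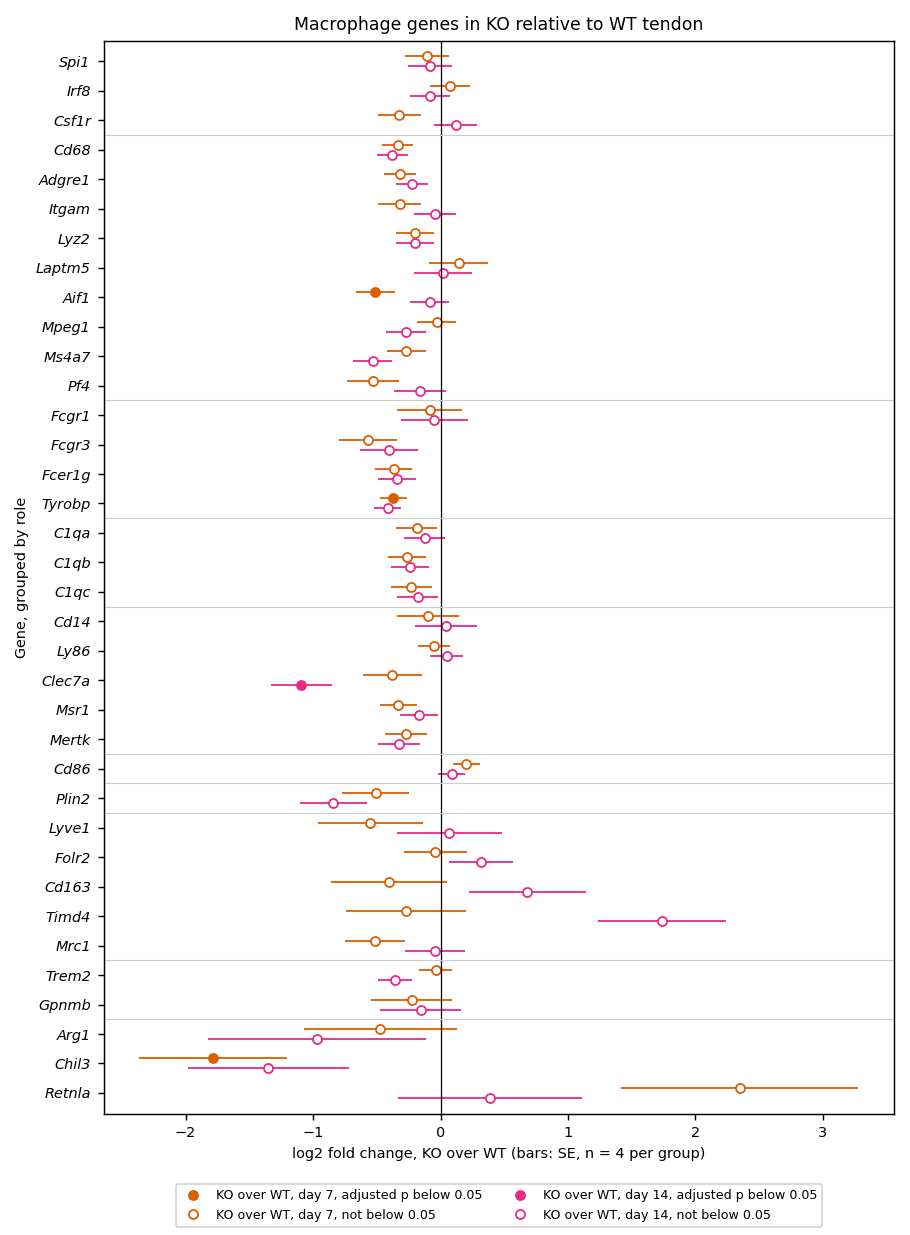
Points are log2 fold changes of KO over WT at day 7 (orange) and day 14 (pink), with bars for the SE (n = 4 per group), and filled points pass the test. Most points lie a little left of 0. Aif1, Tyrobp and Chil3 pass at day 7 and Clec7a at day 14.

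Genes of the pathways around these receptors were counted from lists set apart from the 36. Of 12 genes that signal beneath TREM2 and the Fc receptors, 12 rose in WT day 7 against WT day 0, with a median log2 change of 1.44, beside 32.3% of all genes and a median of 0.02. The phosphatase gene Ptpn6 changed by 1.53 ± 0.12 and the exchange factor gene Vav1 by 1.90 ± 0.15. All 12 fell in WT day 14 against WT day 7 and in KO day 14 against KO day 7, beside 14.3% and 8.57% of all genes, and 3 of them, Lyn, Btk and Fgr, were lower in KO than in WT at day 7, beside 5.42%.

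Of 11 tested growth factors and attractants of macrophages, 8 rose and 3 fell in WT day 7 against WT day 0, beside 32.3% and 31.8% of all tested genes. The monocyte attractants Ccl8 and Ccl7 rose by 3.27 ± 0.37 and 2.97 ± 0.45 on the log2 scale. Il34, a ligand of the Csf1r receptor, changed by -1.33 ± 0.23 at day 7 (adjusted p = 6.18e-05) and by -0.15 ± 0.23 at day 14 (adjusted p = 0.615), both against WT day 0. Csf1, the other ligand, changed by -0.85 ± 0.19 at day 7 (adjusted p = 0.000611) and by -1.49 ± 0.19 at day 14 (adjusted p = 2.80e-06). Between KO and WT, 0 of the 11 passed at either day. Of 10 genes of recruited monocytes, 8 rose in WT day 7 against WT day 0 and 0 fell, beside 32.3% and 31.8% of all genes. This list includes the matrix genes Fn1, Thbs1 and Vcan. Its summed level averaged 5742 CPM in WT day 0, 11300 CPM in WT day 7 and 16080 CPM in WT day 14. The part of other cells in that sum was not tested. Between WT day 14 and WT day 7, 2 of the 10 rose and 4 fell, beside 16.0% and 14.3% of all genes. Ccr2, the receptor for Ccl2 and Ccl7, fell by 1.96 ± 0.23 between WT day 14 and WT day 7 (adjusted p = 1.65e-05).

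Of 16 lipid and lysosome genes that accompany Trem2 in other tissues, 11 rose and 3 fell in WT day 7 against WT day 0, beside 32.3% and 31.8% of all genes. In WT day 14 against WT day 0, 12 rose and 2 fell, beside 28.0% and 26.2%. The cathepsin gene Ctsb changed by 1.83 ± 0.12 at day 7 and 1.45 ± 0.12 at day 14. Spp1, the matrix protein osteopontin, rose by 1.13 ± 0.25 between WT day 14 and WT day 7 (adjusted p = 0.00211). In KO against WT, Cd36, Cstb and Ctsd were lower at day 7, 3 of 16 beside 5.42% of all genes, and Ctsd, the protease cathepsin D, at day 14 with -0.45 ± 0.09 (adjusted p = 0.0129). Ctsd is made by many cell types.

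Of 12 genes of inflammatory activation, 9 rose and 0 fell in WT day 7 against WT day 0, beside 32.3% and 31.8% of all genes, with Il6 at 6.01 ± 0.76 and Il1b at 4.67 ± 0.69. Of the partners of alternative activation, 4 of 13 were higher and 6 lower, beside the same 32.3% and 31.8% of all genes, so the share of higher genes was near that of all genes. Il4ra, the receptor chain for interleukins 4 and 13, rose by 3.36 ± 0.25, while Pparg changed by -1.37 ± 0.20, Irf4 by -2.37 ± 0.35 and the chemokine gene Ccl24 by -2.62 ± 0.44. Pparg is also a gene of adipocytes, whose 7 markers all fell. Ccl24 was higher in KO than in WT at both days, by 2.34 ± 0.43 at day 7 (adjusted p = 0.00246) and 1.76 ± 0.43 at day 14 (adjusted p = 0.0467).

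Of 12 tested genes for the uptake of dying cells, 8 rose and 4 fell in WT day 7 against WT day 0, beside 32.3% and 31.8% of all genes, the share that fell being near that of all genes. Cd300lf, an immunoreceptor of myeloid cells, changed by 5.42 ± 0.35, and Mfge8, a bridging protein made by several cell types, by -1.54 ± 0.15. Of 13 complement genes other than C1q, 4 rose, among them C3ar1 and Cfp, and 6 fell, among them Serping1, and the share that rose was near the 32.3% of all genes. Cfp, the complement activator properdin, was lower in KO than in WT at day 7, with a log2 change of -0.83 ± 0.17 (adjusted p = 0.00478).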

How the data were processed

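RNA of whole plantaris tendon was sequenced. The authors deposited a table of raw counts per gene for 20 libraries, made with FastQC and STAR on mm10, per the submitters' processing notes. How reads were assigned to genes, including the tool, the annotation and the strand, is not given in the sources used here. The authors' own edgeR results were not used.

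Columns were matched to samples by title. The lowest total of any of the 24885 genes, before filtering, was 21 counts. Genes too low in count were filtered by edgeR's filterByExpr, which left 18918 of 24885 genes. Libraries were scaled by TMM, and 1 quasi-likelihood model over all 5 groups (edgeR 4.0.16, limma 3.58.1, R 4.3.3) gave 6 comparisons and the interaction, with Benjamini-Hochberg adjustment over all tested genes. Exact permutation tests were two-sided, over 70 arrangements of log2 CPM with a prior count of 2. The model was tested on simulated data. No libraries of the same group were duplicates, since the smallest chi-square per degree of freedom within a group was 15.5. Pairs of libraries from different groups were not checked for this. Depth was 32.3 to 63.5 M counts.

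All 36 members are named in the comparisons; genes of a pathway list were open to naming where they passed the test in a comparison, at most 4 a list, in order of p. Ptprc, Prox1, Flt4, Adipoq and Ctsk were named as genes of other cells after their values were seen. Members and lists were chosen with earlier results of these data known. Gene positions, exon lengths and overlaps come from GENCODE vM21 on GRCm38, which may not be the authors' annotation, and promoters from RefSeq. Alternatives were other scalings, filters, DESeq2 1.42.0, limma-voom, a replicate block, the compared groups alone and each library left out. Some genes of the pathway lists are not reported here.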

Additional observations from a re-analysis of the deposited data

Results flagged for a closer look

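In 9 of 180 groups of 4 libraries, 1 value for 1 gene stood farther from the other 3 than Dixon's 95% limit allows, and chance alone gives about 1 in 20. In KO day 14 replicate 4, Csf1r had 328.5 CPM, below the 465.7 to 489.5 CPM of the others, and Lyve1 had 33.3 CPM, below 69.33 to 72.58 CPM. In KO day 7 replicate 1, Chil3 had 18.5 CPM, above 6.721 to 8.645 CPM, and in KO day 7 replicate 3, Cd163 had 450.1 CPM, above 136 to 188.5 CPM. In WT day 7 replicate 1, Aif1 had 24.03 CPM, below 33.73 to 35.23 CPM, and Retnla had 0.3608 CPM, above 0.2828 to 0.288 CPM. In WT day 14 replicate 1, Pf4 had 93.78 CPM, above 52.87 to 58.76 CPM, and in WT day 14 replicate 3, Mrc1 had 248.1 CPM, below 328.4 to 340 CPM. In WT day 0 replicate 1, Ly86 had 19.23 CPM, above 15.13 to 15.31 CPM.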

How the results depend on the processing

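No value changed sign with a call under any setting tried. For KO against WT at day 7, 3 macrophage genes were called, 5 with DESeq2, and 0 to 11 with 1 library left out (0 without WT day 7 replicate 2, 3 or 4, and 1 without KO day 7 replicate 4); over all genes the range was 1440 to 2659. For KO against WT at day 14, 1 was called, 2 with upper-quartile scaling, 2 with the filter of at least 1 CPM in 4 libraries, 5 with DESeq2, and 0 to 4 with 1 library left out. Over all genes, 337 were called, 759 with DESeq2, 86 in the compared groups alone and 152 to 1672 with 1 library left out, the highest without WT day 14 replicate 4. For the interaction, DESeq2 called 190 genes and leaving out 1 library gave 0 to 11. KO day 14 against KO day 7 gave 1693 to 2956 genes with 1 library left out, and 18 to 25 macrophage genes, beside 23 with every library kept. C1qa lost that call in 6 of the 8 settings. WT day 14 against WT day 7 gave 4521 to 5912 genes and 24 to 29 macrophage genes, beside 29 lower and 1 higher with every library kept. Fcgr3 and Folr2 each lost that call in 6 of the 8 settings. The resident sum of WT day 0 was 660.1 CPM, against 627.8 CPM, when scaled without muscle fibre and mitochondrial genes. The causes were not tested.

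Replicate numbers are shared between groups. For libraries of the same number, the median r of their deviations was 0.0474 over 40 pairs, 14 of them over 0.1. For libraries of different numbers it was -0.00902 over 120 pairs, 19 of them over 0.1. A larger share of same-number pairs was thus over 0.1. The highest r, 0.345, was between different numbers, beside 0.272 within a number. With the replicate block, the macrophage genes called numbered 31 for WT day 7 over day 0, 25 for WT day 14 over day 0, and 30 between the later WT days. Between the KO days the number was 25, between genotypes 3 at day 7 and 1 at day 14, and in the interaction 0. The block ended the calls of Pf4 in WT day 14 against WT day 0 (adjusted p = 0.0673) and Chil3 in KO against WT at day 7 (0.0787), both by edgeR.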

Other observations

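Other immune cells of the tendon also differed. All 4 leukocyte markers were higher in WT day 7 than in WT day 0, as were 4 of 9 T and NK cell markers, with 1 lower, beside 32.3% and 31.8% of all tested genes. Of the mast cell markers, 4 of 9 were lower in KO than in WT at day 7, beside 5.42% of all tested genes, and 0 higher. Their summed level averaged 44.1 ± 21.6 CPM in KO day 7 and 82.4 ± 19.0 CPM in WT day 7 (SD, n = 4 each). Of the keratinocyte markers, 3 of 5 were higher in KO than in WT at day 7, beside 9.39% of all tested genes, with a highest summed level of 683 CPM in 1 KO library.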
